A study of Mus musculus with 4 samples.

Results

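The proliferation set described here holds 10 genes of the dividing cell: Mki67, Top2a, Cenpf, Cenpe, Kif11, Aspm, Bub1, Diap3, Kif15 and Ect2. They were taken by symbol from the 46983 genes of each count table, and all 10 were found once, so none was lost. A nucleus, here a droplet barcode with over 1000 UMIs (unique molecular identifiers, which count captured RNA molecules), was called set-positive when it held 2 or more UMIs of the 10 genes together. By this rule 386 of 8909 nuclei were set-positive: 82 of 2226 in the sham control, 73 of 1203 at day 1, 154 of 3734 at day 3 and 77 of 1746 at day 7.

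Cells copy their DNA in S phase and divide it in M phase, and the genes of the set mostly serve M phase and the division of the cell. Their transcription is low in resting cells, is held off by the repressor complex DREAM through promoter elements called CHR, and reaches its peak in G2 and mitosis, helped by the activator NF-Y at CCAAT boxes. In the adult brain neurons no longer divide, whereas oligodendrocyte precursors (OPCs) and the progenitors of the subventricular zone divide all life long, and microglia and blood vessel cells can re-enter the cycle after injury.

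Each library was made from 3 forebrain hemispheres of male C57Black/6 mice aged 3 months that had been pooled before the nuclei were isolated, so there was 1 library per condition and no replicate. The conditions were sham control and 1, 3 and 7 days after MCAO, in which the middle cerebral artery is closed for good, as in an ischemic stroke without reperfusion. The text on treatment speaks of intact cortical tissue for the control, whereas the design text speaks of forebrain hemispheres for every time point, so the tissue of the control is not certain. The nuclei per time point shown in the publication match these libraries only when the last pair of time points is exchanged. The libraries are therefore called by their deposited labels, and every value given below for day 3 or day 7 belongs to the library labelled so. The libraries held 23285489 to 42963698 UMIs, with medians of 4644.5 to 8728 UMIs per nucleus, and any pair of them shared at most 3 nucleus barcodes. With 1 library per condition no difference could be tested. The 95% intervals given here (exact binomial for shares and ratios, exact Poisson for UMI sums) cover counting error only, not the spread between animals or between nuclei.

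In GRCm38 the genes lie at chr7:135689784-135716361 (Mki67), chr11:98992943-99024189 (Top2a), chr1:189640606-189688086 (Cenpf), chr3:135212537-135273611 (Cenpe), chr19:37376403-37421859 (Kif11), chr1:139454772-139494091 (Aspm), chr2:127801122-127831865 (Bub1), chr14:86655367-87141235 (Diap3), chr9:122951046-123018733 (Kif15) and chr3:27097222-27153878 (Ect2). In GENCODE vM21, from which the positions came, other genes overlapped 6 of the 10: Gm45240 on the other strand of Mki67, Gm26394 and Gm23451 in Top2a, Gm37239 in Cenpf, AC137605.4 and AC137605.6 in Kif11, Gm47148 in Kif15 and Gm25152 in Ect2. Whether counting used the strand is not given in the sources used here, so UMIs of such a pair could not be told apart.

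The stretches upstream of 4 members are shown because they carry the elements through which such genes are known to be regulated together. Sequences came from RefSeq (GRCm38.p6), which listed 9 of the 10 members, all but Diap3. Each stretch holds the 250 bases before the transcription start, 5′ to 3′ on the strand of the gene; capitals mark CCAAT (or its complement ATTGG) and the CHR letters TTTGAA or TTCGAA (or the complement TTCAAA). They lie at chr7:135716380-135716629 (minus strand, Mki67), chr11:99024190-99024439 (minus, Top2a), chr1:189688087-189688336 (minus, Cenpf) and chr19:37376132-37376381 (plus, Kif11).
Mki67: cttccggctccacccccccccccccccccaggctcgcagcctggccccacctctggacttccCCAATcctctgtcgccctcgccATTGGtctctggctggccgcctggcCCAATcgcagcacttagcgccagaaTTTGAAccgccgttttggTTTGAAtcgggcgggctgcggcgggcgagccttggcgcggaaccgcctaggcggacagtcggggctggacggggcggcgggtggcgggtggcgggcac
Top2a: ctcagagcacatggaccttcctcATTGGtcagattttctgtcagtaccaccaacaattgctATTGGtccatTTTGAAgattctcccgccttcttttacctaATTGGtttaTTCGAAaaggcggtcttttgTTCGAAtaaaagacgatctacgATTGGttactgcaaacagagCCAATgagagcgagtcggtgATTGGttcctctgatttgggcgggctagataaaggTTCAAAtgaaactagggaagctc
Cenpf: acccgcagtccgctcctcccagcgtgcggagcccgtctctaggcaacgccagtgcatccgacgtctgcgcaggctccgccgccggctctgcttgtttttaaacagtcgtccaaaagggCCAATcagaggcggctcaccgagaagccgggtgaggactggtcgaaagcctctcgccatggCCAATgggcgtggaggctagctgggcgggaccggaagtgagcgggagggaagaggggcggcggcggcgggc
Kif11: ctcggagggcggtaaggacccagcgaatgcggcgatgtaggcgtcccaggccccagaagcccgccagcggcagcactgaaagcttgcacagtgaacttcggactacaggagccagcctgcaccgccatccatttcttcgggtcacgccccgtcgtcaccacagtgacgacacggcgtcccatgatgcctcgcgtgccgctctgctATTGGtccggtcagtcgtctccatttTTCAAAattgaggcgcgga

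Top2a held 6 CCAAT boxes and 4 CHR matches in this window, Mki67 held 3 and 2, Kif11 held 1 of each, and Cenpf held 2 CCAAT boxes and no CHR match. On either strand, CCAAT stood upstream of 8 of the 9 listed members, all but Kif15, and upstream of 34.5% of the 27025 genes with a sequence of this length. At least 2 CCAAT boxes stood upstream of 6 members (Mki67, Top2a, Cenpf, Aspm, Bub1 and Ect2) against 10.5% of all genes. A CHR match stood upstream of 5 members (Mki67, Top2a, Kif11, Kif15 and Ect2) against 17.4% of all genes, and both elements upstream of 4 against 6.21%. The E2F motifs searched (TTTGGCGC, TTTCCCGC, TTTCGCGC and TTTGCCGC, both strands) were found upstream of Kif15 alone among the members and upstream of 1.91% of all genes; in Kif15 the match lay directly beside a CHR match. A match describes these letters and does not show that a factor binds there.

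The UMIs of the set were spread very unevenly over nuclei. Of the set-positive nuclei, 72 in the sham control and 63, 100 and 57 at days 1, 3 and 7 held only 2 or 3 UMIs of the set, and these were deep nuclei, with medians of 9577.5 to 20440 UMIs. Diap3 alone supplied 64.4% of the set's UMIs in such nuclei in the sham control and 42.9%, 30.3% and 43.2% at days 1, 3 and 7. A small number of nuclei stood far above them, up to 47 UMIs of the set in a nucleus of the sham control and 67, 127 and 83 at days 1, 3 and 7. To describe those apart, nuclei with at least 6 UMIs from at least 3 of the 10 genes are called strongly positive below, a limit chosen after the distribution had been seen.

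**Figure D1:**
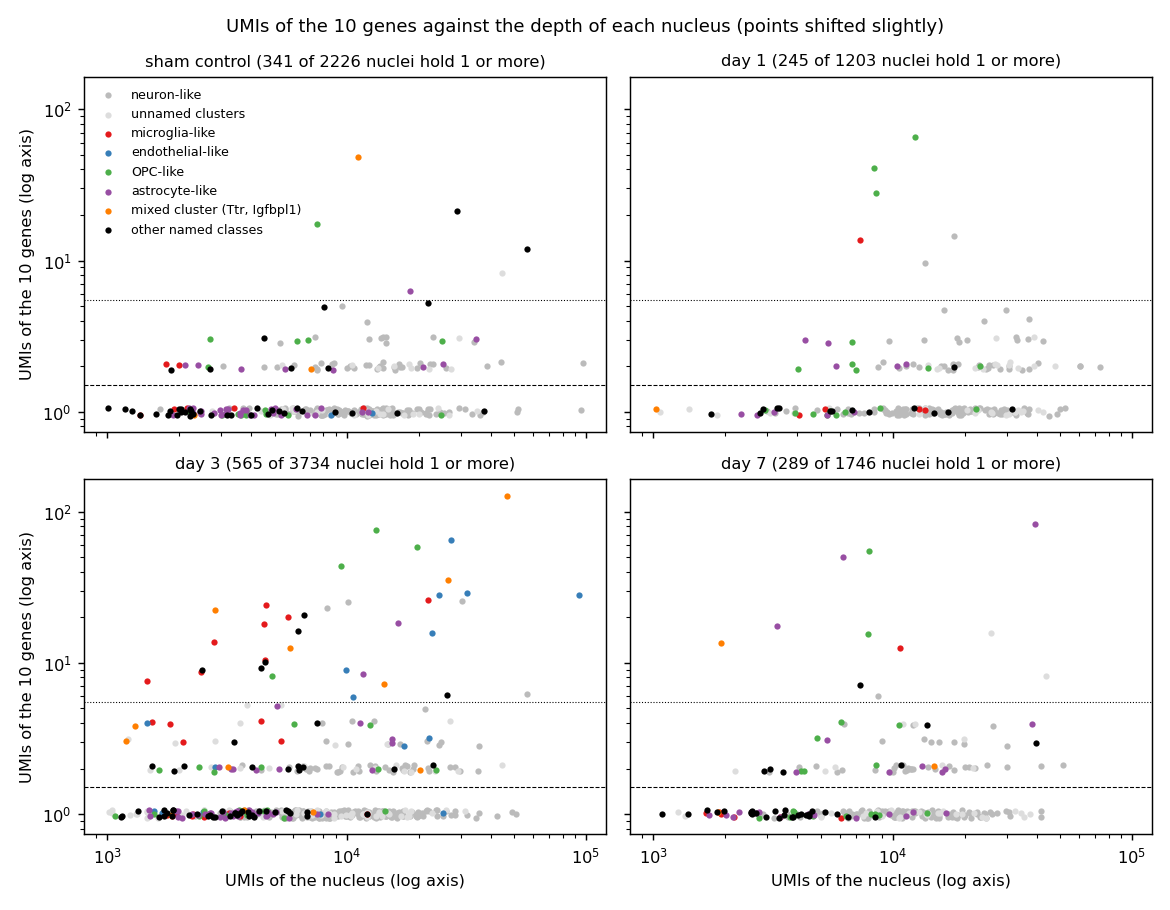
UMIs of the 10 genes (vertical, log axis) against all UMIs of the nucleus (horizontal, log axis) in the 4 libraries, 1 point a nucleus with at least 1 UMI of the set, coloured by class. The dashed line separates nuclei with 1 UMI from set-positive ones and the dotted line those with up to 5 from those with 6 or more: the mass of grey neuron-like nuclei lies at 1 to 3 UMIs at high depth, and the nuclei above the dotted line are most numerous at day 3.

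Strongly positive nuclei numbered 51 of 8909. The sham control had 3 (0.135%, interval 0.0278% to 0.393%), day 1 had 6 (0.499%, 0.183% to 1.08%), day 3 had 35 (0.937%, 0.654% to 1.3%), and day 7 had 7 (0.401%, 0.161% to 0.824%). The day 3 share was the highest of the 4, and its interval did not overlap that of the sham control. These nuclei carried 15.5% of all UMIs of the set in the sham control and 34.1%, 55.0% and 38.0% at days 1, 3 and 7. They ranged from 1470 to 93996 UMIs with a median of 9459. Nuclei with 6 or more UMIs of the set, from any number of genes, numbered 6 in the sham control and 6, 36 and 11 at days 1, 3 and 7. Their median depths were 23658, 10494.5, 10049 and 7937 UMIs, in each library above that of all its nuclei (6218.5, 8728, 4644.5 and 6306.5). The 3 strongly positive ones of the sham control had 7490, 11115 and 28944 UMIs. The 51 strongly positive nuclei held several members at once, with at least 5 of the 10 genes in 45 of them, at least 8 in 26 and all 10 in 8. Doublet scoring marked 6 of the 51, 4 at day 3 and 2 at day 7, out of 243 marked among all nuclei.

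By the rule itself the share of set-positive nuclei was highest at day 1. The sham control had 3.68% (2.94% to 4.55%), day 1 had 6.07% (4.79% to 7.57%), day 3 had 4.12% (3.51% to 4.81%), and day 7 had 4.41% (3.5% to 5.48%). Only the interval of day 1 did not overlap with the sham one, and day 1 was also the library with the deepest nuclei. With Diap3 left out of the rule the sham control had 1.12%, against 3.41%, 2.84% and 2.35% at days 1, 3 and 7. When each nucleus was thinned to 1000 UMIs, which removes the difference in depth, the sham control had 0.225% of nuclei still set-positive (5 nuclei, 0.073% to 0.523%), day 1 had 0.333% (4 nuclei, 0.0907% to 0.849%), day 3 had 0.75% (28 nuclei, 0.499% to 1.08%), and day 7 had 0.458% (8 nuclei, 0.198% to 0.901%). Day 3 then came first, with all 4 intervals overlapping.

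Among the genes that act on chromosomes themselves, Mki67 encodes Ki-67, which coats mitotic chromosomes and keeps them apart. Mki67 had 46 UMIs in all nuclei of the sham control and 48, 166 and 54 at days 1, 3 and 7, or 2.67, 3.56, 7.03 and 3.84 CPM (counts-per-million, relative to every UMI of the nuclei summed). Set against the sham control, day 1 gave a ratio of 1.33 (0.87 to 2.04), day 3 of 2.63 (1.89 to 3.73) and day 7 of 1.44 (0.952 to 2.18), so only the day 3 interval excluded 1. Top2a, the DNA topoisomerase that untangles sister chromatids, had 36, 69, 283 and 76 UMIs in the same order, or 2.09, 5.11, 11.99 and 5.41 CPM. Relative to the sham control its level was 2.44-fold at day 1 (1.61 to 3.77), 5.73-fold at day 3 (4.04 to 8.35) and 2.59-fold at day 7 (1.72 to 3.96). In the sham control 17 of its 36 UMIs came from 1 nucleus.

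Cenpf and Cenpe build the outer kinetochore, where chromosomes are held by microtubules, and Bub1 is a kinase of the spindle checkpoint that works at the same place. Cenpf had 10 UMIs in the sham control and 23, 126 and 48 at days 1, 3 and 7, the steepest difference of the set, 9.19 times the sham control at day 3 (4.84 to 19.6) and 5.88 times at day 7 (2.94 to 13). At day 7, however, 20 of the 48 UMIs of Cenpf lay in a single nucleus. Cenpe had 38, 30, 147 and 52 UMIs, with ratios of 1.01 (0.603 to 1.67), 2.82 (1.96 to 4.14) and 1.68 (1.08 to 2.62) for the 3 later libraries. Bub1 was the rarest member with 9, 17, 46 and 18 UMIs, and its ratios were 2.41 (1.02 to 6.13), 3.73 (1.8 to 8.66) and 2.45 (1.05 to 6.19).

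The spindle itself is represented by the motor proteins Kif11 and Kif15, which push its poles apart, and by Aspm, which focuses microtubules at the poles. Kif11 had 55 UMIs in the sham control and 33, 125 and 68 at days 1, 3 and 7, with ratios of 0.765 (0.481 to 1.2), 1.66 (1.2 to 2.32) and 1.51 (1.05 to 2.2). Kif15 had 66, 85, 168 and 58 UMIs, with ratios of 1.64 (1.18 to 2.3), 1.86 (1.39 to 2.51) and 1.08 (0.743 to 1.56). Aspm had 14, 15, 75 and 35 UMIs and was 3.91 times the sham control at day 3 (2.19 to 7.49) and 3.06 times at day 7 (1.61 to 6.16).

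Ect2 activates RhoA at the cleavage furrow, and Diap3 is a formin that assembles actin filaments there and elsewhere in the cell. Ect2 had 24 UMIs in the sham control and 27, 72 and 29 at days 1, 3 and 7, with a day 3 ratio of 2.19 (1.36 to 3.63). Diap3 had intervals that held 1 at days 3 and 7: its 251, 154, 380 and 222 UMIs gave 14.6, 11.4, 16.1 and 15.8 CPM, with ratios of 0.783 (0.636 to 0.96), 1.1 (0.939 to 1.3) and 1.08 (0.9 to 1.3). Diap3 is also by far the longest of the 10 genes, 485869 bases on chromosome 14 against 26578 (Mki67) to 67688 (Kif15), and since intronic reads were counted its UMIs are not comparable with those of the others.

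**Figure D2:**
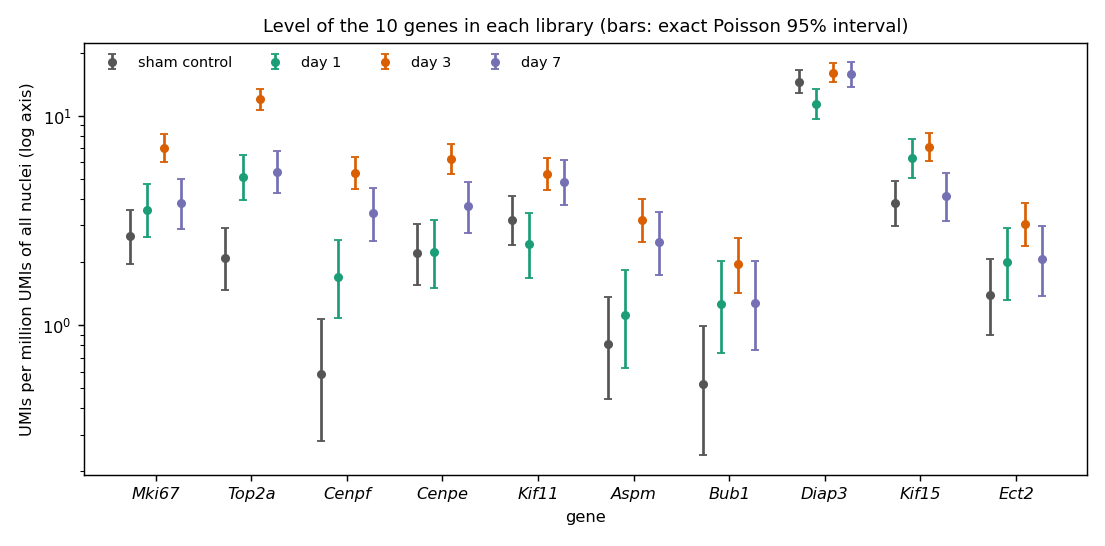
Level of each of the 10 genes in all nuclei of the 4 libraries, in CPM (log axis), with exact Poisson 95% intervals as bars. The day 3 points are the highest of the 4 for all genes, and for Diap3 the 4 points lie within 11.4 to 16.1.

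Counted against the sham control, 7 of the 10 members were at least 2-fold higher at day 3 (Mki67, Top2a, Cenpf, Cenpe, Aspm, Bub1 and Ect2), where 4.42% of the 19768 genes with at least 10 UMIs in both sums together passed the same limit. At day 7 it was 4 members (Top2a, Cenpf, Aspm and Bub1) against 3.78% of genes, and at day 1 it was 3 (Top2a, Cenpf and Bub1) against 5.0%. The median log2 ratio of the members was 1.45 at day 3, 0.67 at day 7 and 0.49 at day 1, and that of all genes counted was -0.03, -0.04 and 0.02. The 3 comparisons share their control library, so the sham values enter each of them. Summed, the 10 genes stood at 31.9 CPM in the sham control and 37.1, 67.3 and 47.0 at days 1, 3 and 7, and without Diap3 at 17.3, 25.7, 51.2 and 31.2. The log2 ratio of the sum to the sham control was 0.22 at day 1, 1.08 at day 3 and 0.56 at day 7. With the free RNA of each library subtracted it was -0.46, 1.42 and 1.28, so the sign at day 1 turned. The libraries differed in their make-up of classes, with neuron-like nuclei numbering 1291 of 2226 in the sham control, 589 of 1203 at day 1, 1812 of 3734 at day 3 and 878 of 1746 at day 7, so a level over all nuclei mixes the level in a class with the share of that class.

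Whether a member marks the same nuclei as the rest was read from nuclei chosen without it: for each gene, the nuclei with at least 6 UMIs from at least 3 of the other 9. For Top2a there were 48 such nuclei, 43 of which held Top2a, and they carried 71.8% of its UMIs, at 487 CPM against 1.94 in all other nuclei, a ratio of 251 (205 to 310). For Cenpf the share was 65.2% (ratio 179, 134 to 242), for Aspm 63.3% (153, 107 to 220), for Ect2 54.6% (108, 77.5 to 151) and for Bub1 45 of its 90 UMIs (89.7, 58.0 to 139). Cenpe followed with 46.1% (84.7, 66.1 to 109), Mki67 with 41.1% (62.5, 49.5 to 78.7) and Kif11 with 40.2% (60.4, 47.1 to 77.1). The lowest shares were those of Kif15, 29.4% (36.9, 29.3 to 46.2), and of Diap3, 18.0% (21.7, 18.4 to 25.5). Every member was thus far denser where the other 9 were, while most UMIs of Cenpe, Mki67, Kif11, Kif15 and Diap3 lay outside those nuclei.

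Diap3 outside the strongly positive nuclei followed cell class. In CPM it stood at 78.3 in OPC-like nuclei (62.8 to 96.5), 74.4 in ependymal-like (54.5 to 99.3), 57.8 in astrocyte-like (48.2 to 68.8) and 24.1 in oligodendrocyte-like nuclei (18.9 to 30.3), against 7.1 in neuron-like (6.36 to 7.91) and 6.79 in microglia-like nuclei (2.73 to 14.0). Between libraries it ranged from 55.6 to 120 in OPC-like and from 43.8 to 72.8 in astrocyte-like nuclei, always above the neuron-like range of 6.43 to 8.24. The other 9 genes summed showed no such order in these nuclei, with 18.7 in OPC-like (11.6 to 28.6), 16.1 in astrocyte-like (11.2 to 22.3), 15.4 in neuron-like (14.3 to 16.5) and 14.5 in oligodendrocyte-like nuclei (10.5 to 19.5). They were higher in ependymal-like (43.7, 28.8 to 63.6) and microglia-like nuclei (39.8, 28.5 to 53.9). Without Diap3, 0 of 9 set-positive astrocyte-like nuclei stayed so in the sham control, 1 of 5 at day 1, 8 of 12 at day 3 and 3 of 10 at day 7, and of the OPC-like ones 1 of 6, 4 of 9, 6 of 12 and 2 of 8. Diap3 thus decided most of these calls in the sham control and at days 1 and 7, and at day 3 fewer, 4 of 12 in astrocyte-like and 6 of 12 in OPC-like nuclei.

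Neuron-like nuclei, which should not divide, gave the level against which the rule is read. Of the nuclei in this class the sham control had 44 of 1291 set-positive (3.41%, 2.49% to 4.55%), day 1 had 43 of 589 (7.3%, 5.33% to 9.71%), day 3 had 55 of 1812 (3.04%, 2.29% to 3.93%), and day 7 had 39 of 878 (4.44%, 3.18% to 6.02%), with median depths of 8302, 14112, 7271.5 and 8828 UMIs. Thinned to 1000 UMIs, 0, 1, 2 and 1 of them were left. Their summed level, 20.3, 25.9, 27.8 and 23.8 CPM, lay below that of free RNA, read from barcodes of at most 100 UMIs, which was 26.3, 33.1, 52.4 and 33.5, and the source of these UMIs was not tested. They were not spread evenly over neuron-like clusters. Mki67 stood at 7.52 CPM (6.01 to 9.3) in the 1127 nuclei of a cluster led by the striatal genes Rgs9 and Drd2, with 85 UMIs, and at 7.78 (3.88 to 13.9) in a cluster of 122 nuclei led by Shisa6. In the cluster of 810 nuclei led by Baiap3 it stood at 1.29 (0.59 to 2.45). Top2a did not share this in the striatal cluster, with 1.06 CPM (0.549 to 1.85). Among the 6 strongly positive nuclei that clustered with neurons, 2 were of day 1 and 4 of day 3. By the markers of single nuclei 1 was microglia-like and 1 fibroblast-like. The other 4 were neuron-like, a name given where no other class passed its limit. A pair of these 4, both of day 3, held 7 and 6 UMIs of Pdgfra, the receptor that marks OPCs. They held 82 and 59 UMIs of OPC markers beside 37 and 67 of the neuronal transcript Meg3. The one with 7 UMIs of Pdgfra fell among OPCs when libraries were merged.

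In microglia-like nuclei the set stood highest at day 3. The sham control had 2 of 87 nuclei set-positive (2.3%, 0.28% to 8.06%), day 1 had 1 of 43 (2.33%, 0.0589% to 12.3%), day 3 had 13 of 188 (6.91%, 3.73% to 11.5%), and day 7 had 1 of 92 (1.09%, 0.0275% to 5.91%), at median depths of 1795, 3506, 1736 and 1949 UMIs. The intervals of the sham control and day 3 overlapped. Strongly positive were 0 of 87 (0% to 4.15%), 1, 8 and 1 nuclei in the same order. Thinning to 1000 UMIs left 10 of 188 set-positive at day 3 (5.32%, 2.58% to 9.56%), against 2 of 1812 neuron-like nuclei of the same library (0.11%, 0.0134% to 0.398%). In microglia-like nuclei it left 1 of 87 in the sham control (1.15%, 0.0291% to 6.24%), 0 of 43 at day 1 (0% to 8.22%) and 1 of 92 at day 7 (1.09%, 0.0275% to 5.91%). These intervals all overlapped that of day 3. The 10 strongly positive nuclei held 8 to 27 UMIs of the set, and none was marked as a doublet. By their own markers 8 of the 10 were called microglia-like too. The other 2, with 27 and 63 UMIs of microglial markers, were called border macrophage, monocyte or granulocyte-like. That call scaled marker UMIs to their level over all nuclei, so rare markers weighed more. The richest of the 10, with 27 UMIs of the set, was also the deepest at 21946 UMIs. It held 67 UMIs of Meg3 and 13 of Rbfox3 beside 80 of microglial markers, and the other 9 held 0 to 15 UMIs of Meg3.

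By gene, microglia-like nuclei had 37 UMIs of Top2a at day 3 against 1 in the sham control, 5 at day 1 and 6 at day 7, a day 3 ratio of 17.3 (2.91 to 700.4). Mki67 had 16 UMIs at day 3 and none in the sham control, which is at least 2.49-fold higher when the sham sum is set to the floor of 3 UMIs. Cenpf had 19 UMIs against 1 (8.87, 1.41 to 369) and Cenpe 21 against 2 (4.9, 1.2 to 43.1). These 3 ratios rest on sham sums of 1 or 2 UMIs as counted; in the count of members that follows, sums below 3 UMIs were set to 3. All 7 members with at least 10 UMIs in both sums together were at least 2-fold higher at day 3, against 7.84% of the 9378 genes so counted. The whole set had 9 UMIs in the sham control, so these members passed the limit of 10 UMIs only with their day 3 sums. Without that limit it was 7 of 10 members against 4.42% of 16639 genes. The summed level was 44.1 CPM in the sham control and 79.2, 364 and 78.7 at days 1, 3 and 7. At day 1 and day 7, 13 of the 17 and 13 of the 19 UMIs came from a single nucleus.

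Among endothelial-like nuclei, set-positive ones were seen in the day 3 library alone of the 4. Of the nuclei in this class the sham control had 0 of 41 set-positive (0% to 8.6%), day 1 had 0 of 6 (0% to 45.9%), day 3 had 11 of 78 (14.1%, 7.26% to 23.8%), and day 7 had 0 of 20 (0% to 16.8%), and the day 1 and day 7 intervals, from few nuclei, both held the share seen at day 3. The sum of the 10 genes was 2, 0, 196 and 0 UMIs, a day 3 ratio to the sham control of 27.5 (7.52 to 229). Top2a had 48 UMIs at day 3 and Mki67 had 28, with none of either in the other 3 libraries, which is at least 4.5-fold and at least 2.62-fold higher than the sham floor of 3 UMIs. At least 2-fold higher were 3 of the 8 members counted (Mki67, Top2a and Diap3), against 7.84% of 9927 genes. For the others the floor in the small sham sum held the ratio below 2. With 2 UMIs of the set in the sham control, members passed the limit of 10 UMIs only through day 3. Without that limit it was 3 of 10 members against 4.71% of 16522 genes. The 7 strongly positive nuclei were deep, 9942 to 93996 UMIs with a median of 24414 against 3663.5 in the class, and 1 was marked as a doublet. Flt1, the VEGF receptor that defines the class, had 5 to 63 UMIs in each of the 7, and the markers of single nuclei called 6 endothelial-like and 1 pericyte-like. Markers of other classes were present in several of them. One with 9 UMIs of the set held 51 UMIs of microglial markers beside 81 of endothelial ones and fell among microglia when libraries were merged. The one marked as a doublet held 523 UMIs of astrocyte markers beside 321 of endothelial ones. Of the neuronal transcript Meg3, one with 15 UMIs of the set held 114 UMIs, the doublet 362, the richest, with 62 UMIs of the set, 74, one with 30 held 31 and one with 29 held 16, at 50, 321, 349, 253 and 374 UMIs of endothelial markers. After thinning, 2 of 78 nuclei stayed set-positive; the part of depth and doublets in this result was not tested.

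OPC-like nuclei held the set in every library, sham control included. Of the nuclei in this class the sham control had 6 of 61 set-positive (9.84%, 3.7% to 20.2%), day 1 had 9 of 35 (25.7%, 12.5% to 43.3%), day 3 had 12 of 103 (11.7%, 6.17% to 19.5%), and day 7 had 8 of 52 (15.4%, 6.88% to 28.1%), and all these intervals overlapped. Strongly positive were 1, 3, 4 and 2 nuclei, with up to 17, 67, 72 and 58 UMIs of the set. Pdgfra was detected in all 10 of them, at 3 to 14 UMIs, and 1 was marked as a doublet. By their own markers 7 of the 10 were OPC-like and the others neuron-like, newly formed oligodendrocyte-like and oligodendrocyte-like, and one of the 7, at day 3, held 52 UMIs of microglial markers beside 410 of OPC markers. The summed level was 145 CPM in the sham control and 655, 482 and 419 at days 1, 3 and 7, with ratios of 4.53 (3.19 to 6.56), 3.33 (2.38 to 4.77) and 2.9 (2.0 to 4.27). Without the richest nucleus of each library the levels were 86.9, 394, 335 and 184, so the order was kept.

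In OPC-like nuclei Top2a had 3 UMIs in the sham control and 43, 50 and 9 at days 1, 3 and 7. Mki67 had 1, 15, 30 and 7 UMIs, Kif15 had 2, 14, 28 and 1, and Ect2 had 1, 13, 10 and 12. Diap3 had 25, 31, 48 and 31 UMIs, or 88.1, 130, 104 and 129 CPM, with all ratios to the sham control between 1.18 and 1.48 and intervals that held 1. At day 3, 8 of the 9 members counted were at least 2-fold higher than in the sham control, all but Diap3, against 7.94% of 9217 genes. Of the 41 UMIs of the set in the sham control 25 were of Diap3. No other member reached 10 UMIs there, so the others passed the limit of 10 UMIs only with their day 3 sums. Without that limit it was 8 of 10 members against 4.41% of 16599 genes.

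The other classes gave smaller numbers. In astrocyte-like nuclei 9 of 143, 5 of 54, 12 of 229 and 10 of 72 were set-positive in the order of the libraries, and the summed level at day 7, 384 CPM against 87.7 in the sham control, 53.2 at day 1 and 101 at day 3, came to 83.0% from 3 strongly positive nuclei. The richest of these, with 83 UMIs of the set, was marked as a doublet, and without it the day 7 level was 228. Of the 5 strongly positive nuclei in this class 1 was called astrocyte-like by its own markers. Leptomeningeal or fibroblast-like nuclei had 3 strongly positive ones among 30 at day 3, each with 4 to 10 UMIs of the collagen gene Col1a2, and none among 14, 3 and 16 in the sham control, at day 1 and at day 7. Pericyte-like nuclei had 1 among 19 at day 3. Oligodendrocyte-like nuclei, most of them past division, had 1 among 431 at day 3 and none among 323, 160 and 259 in the other libraries. Its own markers called that nucleus neuroblast or progenitor-like. Ependymal-like nuclei had 1 in the sham control, with 21 UMIs of the set. By the rule of 2 UMIs, however, the ependymal-like class was often set-positive, with 5 of 25 nuclei in the sham control, 1 of 10 at day 1, 7 of 26 at day 3 and 2 of 10 at day 7, and of these 1, 1, 2 and 1 stayed so without Diap3. Outside the strongly positive nucleus its 70 nuclei held 46 UMIs of Diap3, 12 of Kif11 and 8 of Cenpf, and none of Mki67 or Cenpe.

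A mixed cluster of 143 nuclei, led by 2610307P16Rik, Ttr and Igfbpl1, was given no name, since markers of neuroblasts and of choroid plexus stood side by side among its leading genes. It held the richest nuclei of 2 libraries. Strongly positive were 1 of 17 in the sham control, 0 of 34 at day 1, 5 of 76 at day 3 and 1 of 16 at day 7. The nucleus with 127 UMIs of the set at day 3 had 39 UMIs of Top2a, 21 of Diap3, 12 of Igfbpl1, 167 UMIs of the neuroblast or progenitor markers, 248 of OPC markers, 134 of astrocyte markers and 96 of Meg3, and the nucleus with 47 UMIs in the sham control had 17 of Top2a and 51 of those markers. By their own markers 4 of the 7 were neuroblast or progenitor-like. The richest nucleus gave 57.7% of the cluster's 220 UMIs of the set at day 3. The 1544 nuclei of other unnamed clusters held 10 set-positive ones of 212 in the sham control, 14 of 261 at day 1, 24 of 742 at day 3 and 10 of 329 at day 7, and none was strongly positive. Clusters of 664 and 171 of these nuclei were led by mitochondrial genes, and no filter on mitochondrial RNA was applied. They held 36 and 14 nuclei of the sham control, 129 and 36 of day 1, 393 and 84 of day 3 and 106 and 37 of day 7. These nuclei enter every value given for all nuclei.

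**Figure D3:**
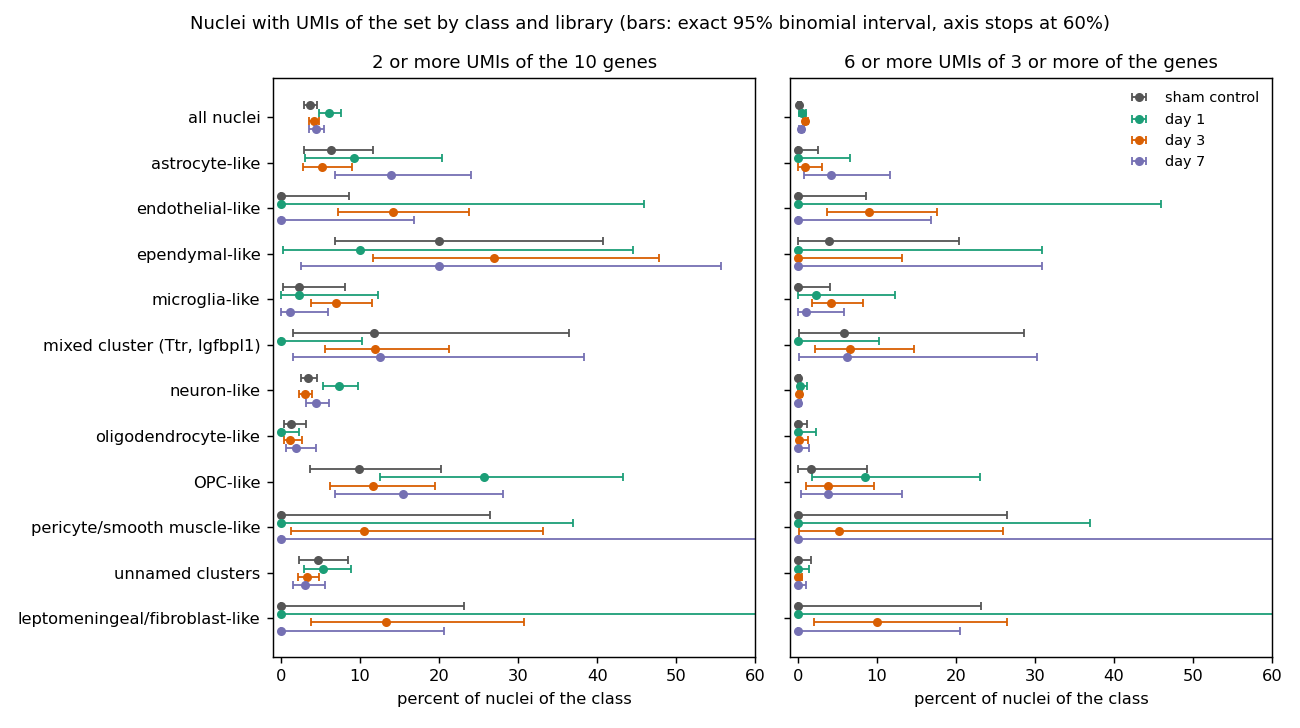
Percent of nuclei per class and library with 2 or more UMIs of the 10 genes (left) and with 6 or more UMIs from at least 3 of them (right), with exact 95% binomial intervals as bars; the axis stops at 60%, and the bars of the smallest groups run past it. Neuron-like nuclei reach 7.3% on the left and stay at or below 0.34% on the right, where the endothelial-like, microglia-like and leptomeningeal or fibroblast-like points of day 3 stand at 8.97%, 4.26% and 10.0%.

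**Figure D4:**
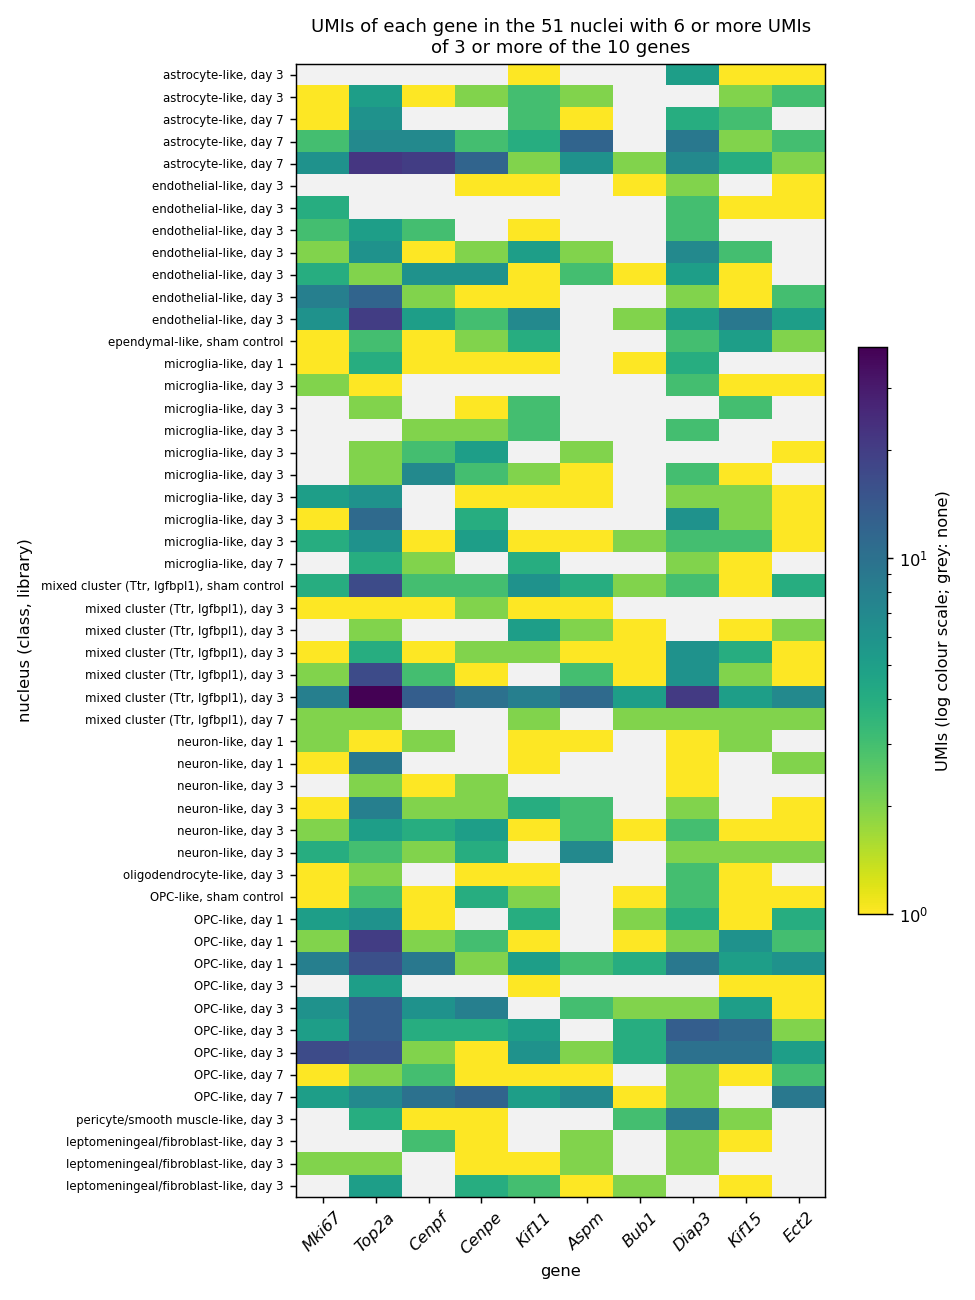
UMIs of each member (columns) in each of the 51 strongly positive nuclei (rows, by class and library), on a log colour scale with grey for no UMI. Top2a was detected in 46 of the nuclei, Diap3 in 44, Kif11 in 41, Kif15 in 40, Cenpe in 39, Mki67 in 38, Cenpf in 36, Ect2 in 34, Aspm in 28 and Bub1 in 23.

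Other genes of the cell cycle, which the rule did not use, were compared between set-positive nuclei and the other nuclei of the same class and library. The number of UMIs expected for a gene was that of the other nuclei scaled to the total UMIs of the set-positive ones and summed over classes and libraries. Of 83 further mitosis genes, 65 were at least 2-fold above expectation and none was as far below, where 3.65% of the 21041 genes counted were so much higher, and the median log2 ratio of the list was 2.5. Depdc1a had 35 UMIs against 0.235 expected, Troap 32 against 0.589, Kif18b, a kinesin that trims microtubules, 42 against 0.908, Hmmr, a spindle assembly factor, 78 against 1.98, Fam64a 16 against 0.418, and Cdca2, which steers protein phosphatase 1 at anaphase, 72 against 2.54. The same list in strongly positive nuclei had 81 of 83 genes at least 2-fold higher, with a median log2 ratio of 4.34, against 6.29% of 19309 genes.

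Genes of DNA replication differed less. In set-positive nuclei 26 of 62 were at least 2-fold above expectation and none as far below, against 3.65% of the 21041 genes counted. In strongly positive nuclei it was 53 of 62, against 6.29% of 19309 genes. The median log2 ratios of the list were 0.83 and 1.8. Highest were Neil3, a glycosylase that acts at replication forks, with 66 UMIs against 1.14 expected (ratio 58.0, 44.9 to 73.8), and Esco2, which acetylates cohesin in S phase, with 42 against 0.798 (52.6, 37.9 to 71.1). The atypical E2F repressors E2f8 and E2f7 followed with 24 UMIs against 1.33 and 51 against 5.81, then E2f2 with 30 against 4.08 and Clspn, the checkpoint adaptor claspin, with 82 against 11.9 (6.9, 5.49 to 8.57).

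In set-positive nuclei 3.65% of all genes counted were at least 2-fold above expectation. Of 23 cyclins, kinases and other factors of cell cycle entry 5 were, with a median log2 ratio of 0.39. They were Foxm1, the transcription factor of G2 genes (19 UMIs against 2.54), the kinase subunits Cks2 (27 against 5.3) and Cks1b (12 against 5.83), and the cyclins Ccna2 (17 against 3.52) and Ccnf (79 against 29.2). Mybl2, a partner in the activating complex of these genes, had 28 UMIs against 15.6 (1.8, 1.2 to 2.6).

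Of 18 inhibitors of the cycle 2 were at least 2-fold above expectation, against 3.65% of all genes counted. They were Cdkn2c with 31 UMIs against 9.94 (3.12, 2.12 to 4.43) and Rbl1, which encodes the pocket protein p107, with 77 against 27.6 (2.79, 2.2 to 3.48). The median log2 ratio of the list was -0.17. Next came Ccng2 (62 against 46.5), Fzr1 (76 against 60.9), Rb1 (732 against 681) and Trp53 (133 against 132), all less than 2-fold above expectation. Lowest were Cdkn1c, the p57 inhibitor, with 22 UMIs against 43.3 (0.508, 0.319 to 0.77), Cdkn2d with 46 against 65.2 (0.705, 0.516 to 0.941) and Cdkn1b, the p27 inhibitor, with 69 against 88.5 (0.78, 0.607 to 0.987). In strongly positive nuclei Cdkn1c had 1 UMI against 16.5 expected.

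**Figure D5:**
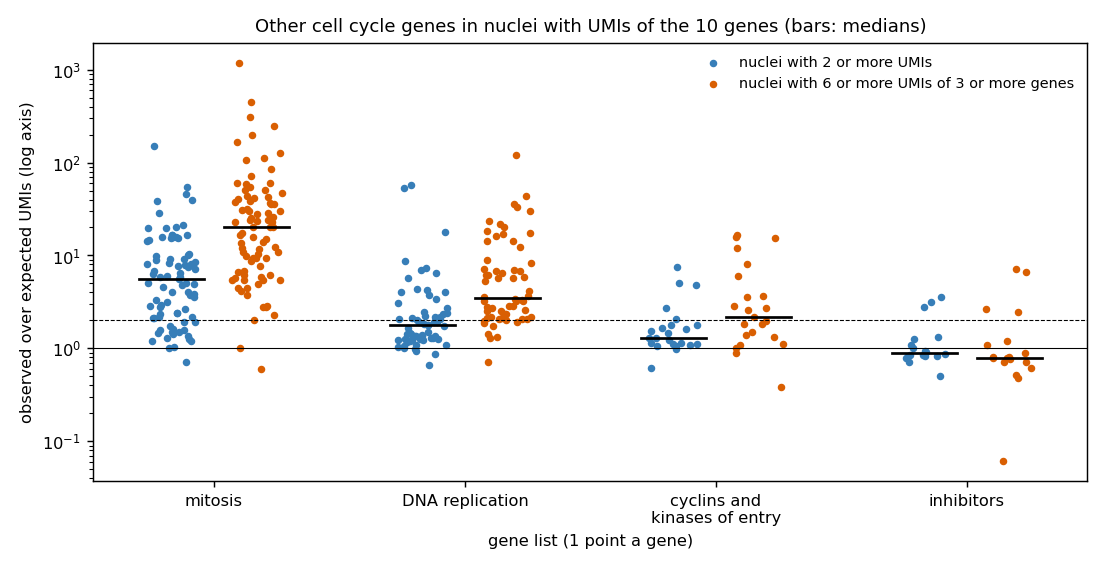
Observed over expected UMIs (log axis) of other cell cycle genes, 1 point a gene, in nuclei with 2 or more UMIs of the 10 genes (blue) and in strongly positive nuclei (orange); genes without UMIs on either side are left out, black bars are medians and the dashed line marks 2. The mitosis list stands highest, with single genes above 100, the replication list lower, and the inhibitors lie around 1.

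Within classes, genes of cell state were set against the same expectation. In the 17 set-positive microglia-like nuclei the homeostatic genes summed to 122 UMIs against 227 expected (0.539, 0.447 to 0.643). Siglech had 13 UMIs against 42.6, Gpr34 6 against 28.4, Sall1 4 against 15.1, P2ry12 24 against 48.5 and Selplg 18 against 30.6, whereas Cx3cr1, the fractalkine receptor, had 51 against 53.9 and Tmem119 6 against 4.87. The genes of reactive microglia summed to 426 UMIs against 544 (0.784, 0.711 to 0.862). Without the deepest nucleus, which held neuronal RNA, the homeostatic genes stood at 116 against 167 (0.695, 0.574 to 0.833) and the reactive genes at 365 against 383 (0.954, 0.859 to 1.06), so the reactive sum was then level with expectation; the genes below are given with all 17 nuclei. Spp1 (osteopontin) had 61 UMIs against 37.2 (1.64, 1.25 to 2.11) and Plin2, a lipid droplet protein, 33 against 21.2 (1.55, 1.07 to 2.18), while Apoe had 128 against 233, Lyz2 1 against 20.8, Cd74 0 against 7.25 and Fabp5 2 against 8.83. Ctsd (88 against 94.7), Ctsb (56 against 67.6), Cd63 (16 against 15.5), Lgals3 (15 against 9.35), Gpnmb (13 against 16.8) and Igf1 (9 against 8.46) had intervals that held the expected value.

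In the 35 set-positive OPC-like nuclei the precursor genes summed to 4516 UMIs against 4825 expected (0.936, 0.909 to 0.964). Lhfpl3 (1620 against 1592), Ptprz1 (612 against 613) and Sox6 (560 against 565) were level with expectation. The growth factor receptor gene Pdgfra (172 against 221), the proteoglycan genes Cspg4 (49 against 80.2) and Vcan (258 against 319), Tnr (1094 against 1204), Megf11 (112 against 162) and Neu4 (39 against 67.2) were lower. The genes of newly formed oligodendrocytes summed to 1154 UMIs against 1079 (1.07, 1.01 to 1.13) in these nuclei, but not alike. Tcf7l2 (114 against 79.3) and Prom1 (9 against 3.86) were above expectation and Gpr17 (19 against 30.8) below. The others had intervals that held the expected value. In the 10 strongly positive nuclei the list summed to 262 against 366 (0.715, 0.631 to 0.807). There Bcas1 had 24 against 88.8 and Nckap5, in the other direction, 102 against 70.3 (1.45, 1.18 to 1.76). The precursor genes summed to 1448 against 1523 (0.951, 0.903 to 1.0) in those 10, but not alike: Sox6 (222 against 176), Ptprz1 (237 against 191) and Lhfpl3 (575 against 508) were above expectation, Pdgfra had 71 against 64.5 with an interval that held it, and Tnr (257 against 389), Vcan (47 against 101), Megf11 (24 against 49.7), Neu4 (8 against 19.8) and Cspg4 (7 against 23.8) were below. These intervals treat UMIs as independent, and nuclei of 1 class that differ among themselves would widen them.

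Over the 32 sums of at least 20 nuclei of a class in a library, the genes whose log2 level was most like that of the summed set were Cdca2 (Pearson's r of 0.837), Casc5 (0.83), 1190002F15Rik (0.825), 2610020H08Rik (0.815), Kif20b (0.809), Tpx2 (0.805), Kntc1 (0.804), Esco2 (0.799), Ttk (0.789) and Clspn (0.786). The members themselves, which are part of the sum, ranged from 0.75 (Bub1) to 0.908 (Cenpf). The 32 sums share 4 libraries and differ in depth, so the coefficients are a description.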

How the data were processed

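Single-nucleus RNA sequencing (10x Chromium) was done on 4 libraries, 1 per condition, taken by their labels. The deposited values were raw UMI counts per gene and barcode, for every barcode of the whitelist. To make these counts, the authors mapped reads to GRCm38 with STAR 2.7.3a (STARsolo), counted exonic and intronic reads against GENCODE vM8, collapsed UMIs and dropped UMIs that hit several genes. Their later steps (emptyDrops, SoupX, SCTransform) were not applied to the deposited counts. Since introns were counted, long genes collect more UMIs, and free RNA was not removed.

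Barcodes over 1000 UMIs were kept as nuclei, without a filter on mitochondrial RNA. They were normalised with sctransform 0.4.2 and integrated and clustered in Seurat 5.3.0 (R 4.3.3; 2984 variable features without cell cycle genes, 30 principal components, resolution 0.8). Clusters were named "X-like" from a list of 217 markers of 17 classes. No name was given to a cluster with fewer than 3 detected markers, with a low score, or with a next class that scored close to the first. The same held for a cluster with 3 or more mitochondrial genes among its top 10, or a shallow one without own markers there. A cluster where markers of another class led its top 10 genes was not named either. This last condition was revised once after the clusters had been seen. By its own markers a single nucleus got the class whose marker UMIs stood highest, above a set limit, relative to all nuclei. It was called neuron-like only where no other class passed and neuronal markers were present. Doublets were scored with Scrublet (scanpy 1.11.5), marked at a rate of 0.8% per 1000 nuclei, and kept. No cells were tested as replicates and no p-value was computed. UMIs were summed per class and library, and shares, sums and ratios were given exact 95% intervals (scipy 1.17.1, numpy 2.4.6, Python 3.11.15), which cover counting error only. A gene was counted as higher at 2-fold or more, with at least 10 UMIs in both sums together and with sums below 3 UMIs set to 3. This count and the ratio intervals were tested on simulated data. TMM factors came from edgeR 4.0.16, and figures from matplotlib 3.10.9. All 10 members were named; other genes were named by rules on their ratio, their likeness to the summed set or their UMI number, and the genes Meg3, Rbfox3, Col1a2, Flt1, Igfbpl1 and those leading a cluster were added after their values were seen. The members, the gene lists and the rules were chosen with earlier results of these data known. Nuclei were also compared under other depths, UMI limits, thinning, classes and scalings. The study's own nucleus calls and cell annotation were not used here.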

Additional observations from a re-analysis of the deposited data

Results flagged for a closer look

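Barcodes of over 100 and up to 1000 UMIs entered none of the comparisons of the report, yet those of up to 500 UMIs held the 10 genes at a higher level than the same barcodes of the sham control in 2 libraries. The level was 87.7 CPM at day 3 (1323 UMIs of the set in 41840 barcodes) and 42.1 at day 7 (369 in 27317), against 35.4 in the sham control (325 in 29888). The ratio to the sham control was 2.48 (2.19 to 2.80) at day 3 and 1.19 (1.02 to 1.38) at day 7, with intervals for counting error only. At day 1 the level was 24.0, a ratio of 0.676 (0.546 to 0.834). Few of these barcodes were set-positive, 57 at day 3 (0.136%), 16 at day 7 (0.0586%), 6 at day 1 (0.0453%) and 18 in the sham control (0.0602%). In barcodes of over 500 and up to 1000 UMIs the day 3 level was 88.6 against 45.9, with a ratio interval of 0.962 to 4.53. The day 7 level there was 40.1 (ratio 0.873, 0.365 to 2.31) and the day 1 level 26.2 (0.571, 0.273 to 1.38), both below the sham control. Barcodes of at most 100 UMIs, which hold free RNA, stood at 52.4 at day 3 and 26.3 in the sham control. Whether the barcodes of 100 to 500 UMIs hold shallow nuclei or free RNA was not tested.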

How the results depend on the processing

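No paired analysis was possible because each condition had 1 library, and for the same reason no replicate could be left out. Recomputed under other settings, 163 values stayed within the counting interval of the value reported (for counts of genes, within 1.5 times), 58 moved out of it and 1 turned its sign; the causes were not tested. In the order sham control, day 1, day 3 and day 7, the share of set-positive nuclei was 15.3%, 20.4%, 15.1% and 16.6% from 1 UMI, 1.17%, 2.0%, 2.01% and 1.78% from 3 UMIs, 1.39%, 3.41%, 2.68% and 2.12% from at least 2 genes, 0.225%, 0.333%, 0.75% and 0.458% after thinning to 1000 UMIs, and 1.12%, 3.41%, 2.84% and 2.35% without Diap3. It was 0.135%, 0.499%, 0.937% and 0.401% from 6 UMIs of 3 genes, a limit chosen after seeing the data. Without Kif15 the day 1 share was 4.49%, and in nuclei over 2000 UMIs the day 3 share was 4.92%. At day 3, microglia-like nuclei were at 12.8% from 1 UMI and 14.7% over 2000 UMIs, and endothelial-like ones at 2.56% after thinning. OPC-like nuclei were then at 26.2% from 1 UMI, 5.83% from 3 UMIs, 3.88% after thinning, 5.83% without Diap3 and 3.88% from 6 UMIs of 3 genes, and neuron-like nuclei at 16.2%, 0.883%, 0.11%, 1.88% and 0.221%, and at 1.66% from at least 2 genes. The day 3 shares of microglia-like, endothelial-like, OPC-like and neuron-like nuclei, the only ones so recomputed by class, stayed within their intervals under 3 other ways of naming classes and without marked doublets.

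With free RNA subtracted, the log2 ratio of the summed set to the sham control in all nuclei was -0.46 at day 1 (0.22 without the subtraction), 1.42 at day 3 and 1.28 at day 7. As the mean of the nuclei's own levels it was 0.86 at day 3, and 0.91 in OPC-like nuclei at day 3. In microglia-like nuclei over 2000 UMIs it was 4.43 at day 3. TMM scaling moved the endothelial-like ratio by 0.16 and every other ratio by less than 0.1. With sums below 3 UMIs set to 3, members at least 4-fold higher numbered 0 at day 1 (0.818% of all genes counted), 2 at day 3 (0.607%) and 1 at day 7 (0.52%) in all nuclei, and at day 3 1 in microglia-like (0.491%), 1 in endothelial-like (1.05%) and 3 in OPC-like nuclei (0.412%); at 1.5-fold 5 were higher in endothelial-like nuclei (16.5%). With at least 20 UMIs required, 4 of 4 members in microglia-like (7.34%) and 3 of 4 in OPC-like nuclei (5.49%) were at least 2-fold higher. The members so called reached that limit only with their day 3 sums. In microglia-like nuclei alone 36 mitosis genes (of 40 counted) were at least 2-fold above expectation (9.48% of all genes counted), and in strongly positive nuclei 53 replication genes were (6.29%). The observed share of expectation without the deepest microglia-like nucleus, added after seeing the data, was 0.695 for homeostatic and 0.954 for reactive genes. The number of nuclei limited small classes: the 6 endothelial-like nuclei of day 1 allow any share up to 45.9%.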
